A study of Caenorhabditis elegans with 2 samples.

Results

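Chromosome V carried 1034 of the 6218 KLE-2 peaks in the list. It was taken as every peak whose chromosome is given as V, with no use of score, width or position. Its low peak density in this list was known when it was chosen, so that density is a description. The assay was ChIP-seq, the sequencing of DNA recovered with an antibody from fixed chromatin, on whole Caenorhabditis elegans of the genotype fem-2(b245)III, labelled as hermaphrodites and young adults with a germline, kept at 20 °C. The KLE-2 antibody (rabbit, polyclonal, affinity purified) was used at 5 µg per ChIP, after 10 minutes in 1% formaldehyde. The series has 1 ChIP library and 1 input library from the same kind of animal. The peak list is given under the ChIP library, and whether input or pooled reads also went into it is unknown here. The input library was not analysed here. Positions are those of WS220, counted from 1. The growth notes describe gravid adults where the stage label says young adult, so the exact age is uncertain. Whole animals were ground, so germline and somatic nuclei cannot be told apart, and every group shares the fem-2 mutation. Because there is a single list, no replicate error can be given and no test was run. The 95% intervals below are counting errors of peaks in that list. They treat neighbouring peaks as independent, whereas counts in 100-kb windows varied more than independent peaks at an even density would give. The intervals are therefore likely too narrow, also those said not to hold 1.

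KLE-2 is the kleisin of condensin II, the subunit that closes the ring formed by the SMC proteins MIX-1 and SMC-4. Condensin II compacts chromosomes for mitosis and meiosis and also binds chromatin between divisions. The chromosomes of this worm are holocentric, so condensin acts along their whole length and not at 1 centromere. Autosomes have a gene-dense center and arms that hold more repeats and recombine more. Chromosome V is known for its large families of chemoreceptor genes and for the tandem array of 5S rRNA genes. In that array, each repeat also carries a gene for SL1, the short leader RNA that is spliced onto the start of many worm messages.

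Peaks were sparser on chromosome V than on each of the other 4 autosomes, while the peaks themselves had much the same width and score. Chromosome V had 49.5 peaks per Mb (exact Poisson 95% interval 46.5 to 52.6). Chromosome IV, the next in density, had 64.4 peaks per Mb (60.7 to 68.2), chromosome II 67.7 (63.7 to 72.0), chromosome I 87.6 (82.9 to 92.4) and chromosome III 92.1 (87.1 to 97.4). The interval of V does not overlap any of the others. Against chromosomes I to IV pooled, the density ratio was 0.642 (conditional exact binomial interval 0.599 to 0.686). Chromosome V made up 25.3% of the autosomal span but held 17.9% of the autosomal peaks and 18.6% of the bases they covered. Peaks covered 3.48% of chromosome V, against 5.18% of chromosomes I to IV.

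The density ratio was similar among weak and strong peaks. The score is the authors' own value for each peak and is used only to rank peaks within the list. When the whole list was cut by score into 4 classes of nearly equal size, V had 256 peaks in the lowest class, 242 in the next, 268 in the one above and 268 in the highest. The corresponding density ratios of V to chromosomes I to IV were 0.648, 0.602, 0.660 and 0.656, with intervals that all overlap. The highest class, with scores above 578.865, had 12.8 peaks per Mb on V and 19.5 on chromosomes I to IV. The median score on V was 245.255 (order-statistic interval 221.99 to 265.34), against 232.99 on chromosomes I to IV (222.92 to 245.39). The median width was 536 bp on V (523 to 550) and 546 bp on chromosomes I to IV (539 to 553). Both pairs of intervals overlap.

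Wide peaks were an exception in their point estimate. Chromosome V had 36 peaks of 2 kb or wider, which is 1.72 per Mb (1.21 to 2.38), against 118 on chromosomes I to IV, or 1.92 per Mb (1.59 to 2.29). The density ratio for these wide peaks was 0.899, with an interval of 0.601 to 1.32 that holds both 1 and the ratio for all peaks. As a share of peaks, they were 3.48% on V (exact Clopper-Pearson interval 2.45 to 4.79%), against 1.82% on I, 2.51% on II, 2.29% on III and 3.46% on IV. The point estimate depends on the width limit and on how peaks were split. It was 0.798 (0.582 to 1.08) for peaks of 1500 bp or wider and 0.751 (0.375 to 1.40) for peaks of 3 kb or wider. Once peaks separated by at most 500 bp were joined, the ratio for wide regions was 0.655 (0.465 to 0.905), close to that of all peaks. Chromosome V held 4 of the 10 widest peaks of the list, 6 of the 20 widest, 11 of the 50 widest and 17 of the 100 widest. Its share of the 100 widest, 17%, was near its share of all peaks, 16.6%. The wide peaks made up 16.8% of the bases covered on V and 12.3% on chromosomes I to IV.

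**Figure D1:**
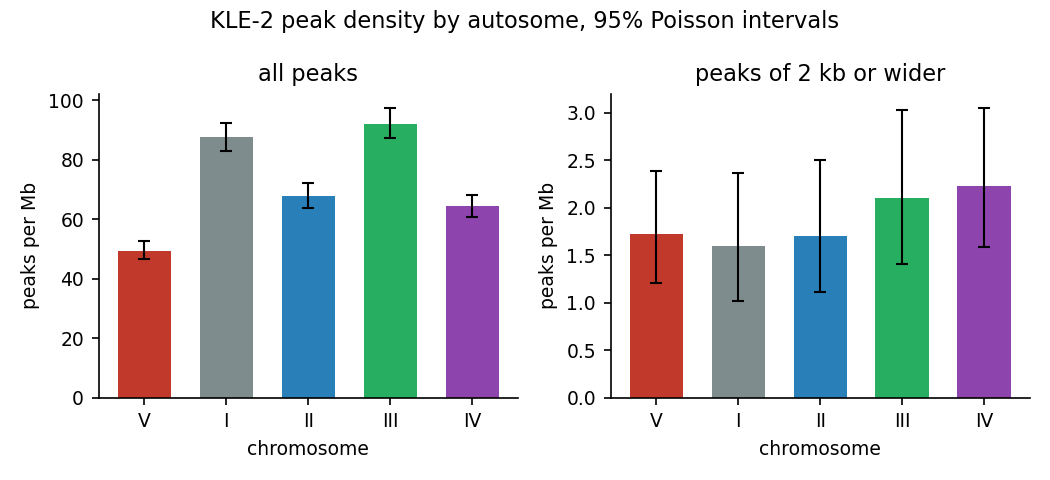
Peaks per Mb on chromosomes V, I, II, III and IV, for all peaks on the left and for peaks of 2 kb or wider on the right. Bars start at 0 and error bars are exact Poisson 95% intervals of 1 list. All peaks are sparsest on V at 49.5 per Mb, whereas the intervals for wide peaks overlap on all 5 chromosomes.

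Along the chromosome, density differed little between 3 equal parts and more between smaller pieces. In pieces of 5% of the span, it was highest at 25 to 30% of the length, in the left arm, with 71.8 peaks per Mb, and next highest in the last 2 pieces, with 66.0 and 65.1. The span, which reaches from base 1 to 20.9 Mb, where the last peak ends, was cut into 3 equal parts, a left arm, a center and a right arm. The left arm had 48.4 peaks per Mb (43.3 to 53.8), the center 46.2 (41.3 to 51.5) and the right arm 53.8 (48.5 to 59.5). These intervals overlap. The ratio of the left to the right arm was 0.899 (0.773 to 1.04), and the ratio of both arms to the center was 1.11 (0.968 to 1.27), so both intervals hold 1. Without the crowded 100-kb window at 6.0 to 6.1 Mb, the left to right ratio was 0.844 (0.724 to 0.984), an interval that no longer holds 1. That window was picked after seeing the data and lies in the left arm, and none was removed from the right arm. The ratio could therefore only fall, and it says nothing about a difference between the arms. With arms of 25% of the span at each end, the arm to center ratio turned to 0.947 (0.837 to 1.07). Chromosome II also had more peaks in its right than its left arm, with a ratio of left to right of 0.850 (0.733 to 0.984). The ratio ran the other way on I, at 1.28 (1.12 to 1.47), and on IV, at 1.40 (1.21 to 1.62), and was 1.00 on III.

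Weaker peaks of chromosome V had a higher arm to center ratio than stronger ones with both arm lengths, with intervals that overlap. Which of the intervals held 1 depended on where the arms were taken to end. Of the peaks with a score above the list median of 229.53, the left arm held 177, the center 182 and the right arm 177. Of the weaker peaks, at or below that median, the left arm held 160, the center 140 and the right arm 198. The arm to center ratio of the weaker peaks was 1.28 (1.05 to 1.57), against 0.973 (0.811 to 1.17) for the stronger ones, and these intervals overlap. With arms of 25% of the span, the ratio of the weaker peaks was 1.11 (0.928 to 1.33), which holds 1, and that of the stronger ones was 0.817 (0.686 to 0.972), which does not. Weaker peaks had a ratio above 1 on the other 4 autosomes as well with the 3 equal parts, from 1.17 on IV to 1.67 on II. The stronger peaks there had lower ratios, from 0.854 on III to 0.984 on II. Between the left and right arms, the stronger peaks of V divided equally (ratio 1.00, 0.807 to 1.24). The same ratio was 1.24 (1.02 to 1.51) on I, 0.584 (0.468 to 0.727) on II, 0.886 (0.727 to 1.08) on III and 1.28 (1.03 to 1.59) on IV. Peaks at or above 3100, a score shared by many peaks and called the ceiling here, numbered 14 in the left arm of V. Its center held 10 and its right arm 12. The wide peaks numbered 14, 12 and 10 in the same places.

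**Figure D2:**
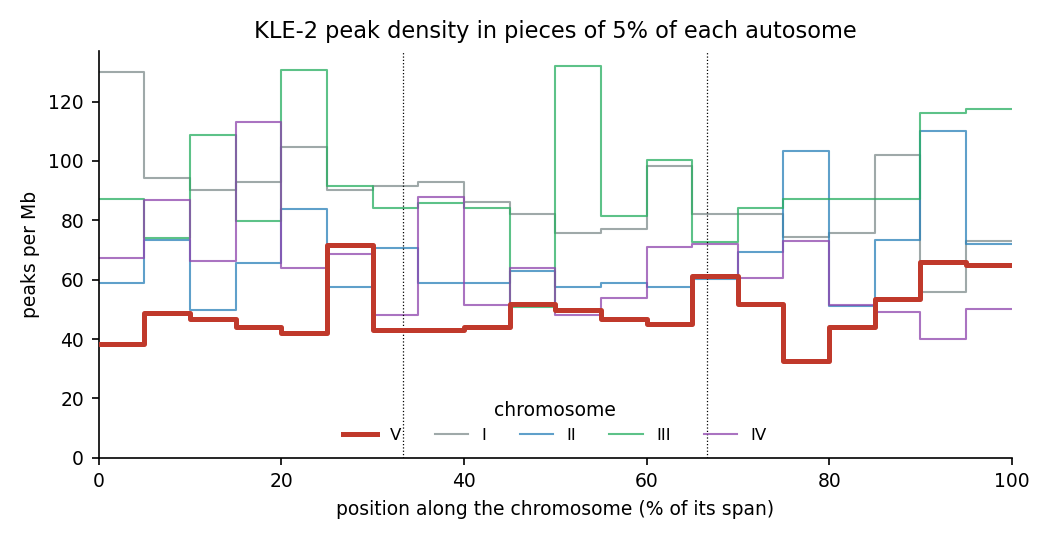
Peaks per Mb in 20 pieces of 5% of the span, on chromosome V (thick red line) and on chromosomes I to IV (thin lines); dotted lines bound the center. Chromosome V stays between 32.5 and 71.8 peaks per Mb, and its highest piece is the one that holds the crowded window described in the text.

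In windows of 1 Mb, chromosome V held 33 to 68 peaks, with a mean of 48.9 ± 9.97 (SD over 20 full windows, which are places on 1 chromosome and not replicates). The full windows of chromosomes I to IV held 41 to 114 peaks, with a mean of 76.8 ± 18.4 over 60 windows. The ranges overlap, but 37 of those 60 windows held more peaks than the fullest window of V. They were 13 of 15 on I, 4 of 15 on II, 12 of 13 on III and 8 of 17 on IV. Of the 20 windows of V, 16 held fewer than the emptiest window of I, and 16 fewer than that of III. Against the emptiest window of II it was 12, and against that of IV only 4. The fullest windows of V lay at 6 to 7 Mb with 68 peaks and at 14 to 15 Mb with 67. The emptiest were at 16 to 17 Mb with 33 peaks, at 3 to 4 Mb with 34 and at 7 to 8 Mb with 36.

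The last megabases on the right were fuller than the average of the chromosome, and weaker peaks were more frequent in part of them. The windows at 18 to 19 Mb and 19 to 20 Mb held 62 and 60 peaks, and the last, incomplete window held 56 peaks in its 0.904 Mb. Together, the 178 peaks beyond 18 Mb made 61.3 per Mb, against 47.6 per Mb on the rest of the chromosome. This limit was set after the windows had been seen, so the values are a description. Of these 178 peaks, 78 (43.8%) had a score above the list median, against 53.5% of the peaks up to 18 Mb. The lower share came from 18 to 20 Mb, where 24 of 62 and 25 of 60 peaks were above the list median. In the last window 29 of 56 (51.8%) were, close to the rest of V. The median width of the 178 peaks was 487.5 bp, against 543 bp on the rest of V.

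Windows of 500 kb showed wider swings. The 41 full windows of V held 5 to 42 peaks (median 24), whereas the 121 windows of chromosomes I to IV held 16 to 72 (median 39). The window with 5 peaks, at 3.0 to 3.5 Mb in the left arm, was the emptiest of them all on the autosomes. Its 5 peaks included a broad one of 6676 bp at the score ceiling (3434538 to 3441213), the fourth widest of the chromosome. That peak stood 43.1 kb from its nearest neighbour on the left and 78.9 kb from the next on the right. The other 4 had widths of 345 to 1212 bp and scores of 56.55 to 937.56. The window thus combined the fewest peaks with 1 of the broadest.

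In windows of 100 kb, chromosome V held a mean of 4.94 ± 3.24 peaks (SD over 209 full windows), against 7.70 ± 4.29 on chromosomes I to IV (613 windows). Windows with 10 peaks or more were 16 of 209 on V (7.66%) and 191 of 613 on chromosomes I to IV (31.2%). The variance of the counts was 2.12 times their mean on V, within the range of 2.10 to 2.53 of the other autosomes. Without the fullest window it was 1.77 on V. The fullest windows of the other autosomes were not left out in the same way.

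The fullest window of 100 kb on V lay at 6.0 to 6.1 Mb in the left arm and held 25 peaks (exact Poisson interval 16.2 to 36.9), which covered 16.7 kb. The next fullest, at 18.9 to 19.0 Mb in the right arm, held 14 (7.65 to 23.5), an interval that overlaps the first. The lead of the fullest window was not present among the stronger peaks alone. It held 8 peaks above the list median, as many as the window at 0.1 to 0.2 Mb. After peaks within 500 bp were joined, or with a score minimum of 100, the highest count of any window of V was 15. Windows with 12 peaks lay at 2.6 to 2.7, 8.8 to 8.9, 18.5 to 18.6, 19.1 to 19.2 and 19.6 to 19.7 Mb. Of these 7 windows, 4 lay beyond 18 Mb. A window of 25 peaks was not particular to V: the fullest held 25 on I, 19 on II, 28 on III and 25 on IV.

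Within the window at 6.0 to 6.1 Mb, 20 peaks formed a single chain with gaps of at most 2 kb, from 6070965 to 6095832. The chain was 24.9 kb long and peaks covered 52.9% of it. Its gaps ran from 7 to 1928 bp, with a median of 423 bp. It opened with a peak of 2085 bp at the score ceiling (6070965 to 6073049). Toward its other end stood a ceiling peak of 817 bp (6088646 to 6089462) and a peak of 1398 bp with a score of 2963.67 (6091391 to 6092788). Between the ceiling peaks lay 15 peaks of 282 to 823 bp, with scores of 59.75 to 238.11. Of the 20 peaks, 15 had a score under the list median. The chain was thus a row of weak peaks with strong ones toward its ends. Its peaks were not unusual in width, with a median of 512.5 bp, against 536 bp for V. On the other autosomes, the chain with most peaks held 7 on I, 11 on II, 22 on III and 12 on IV.

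**Figure D3:**
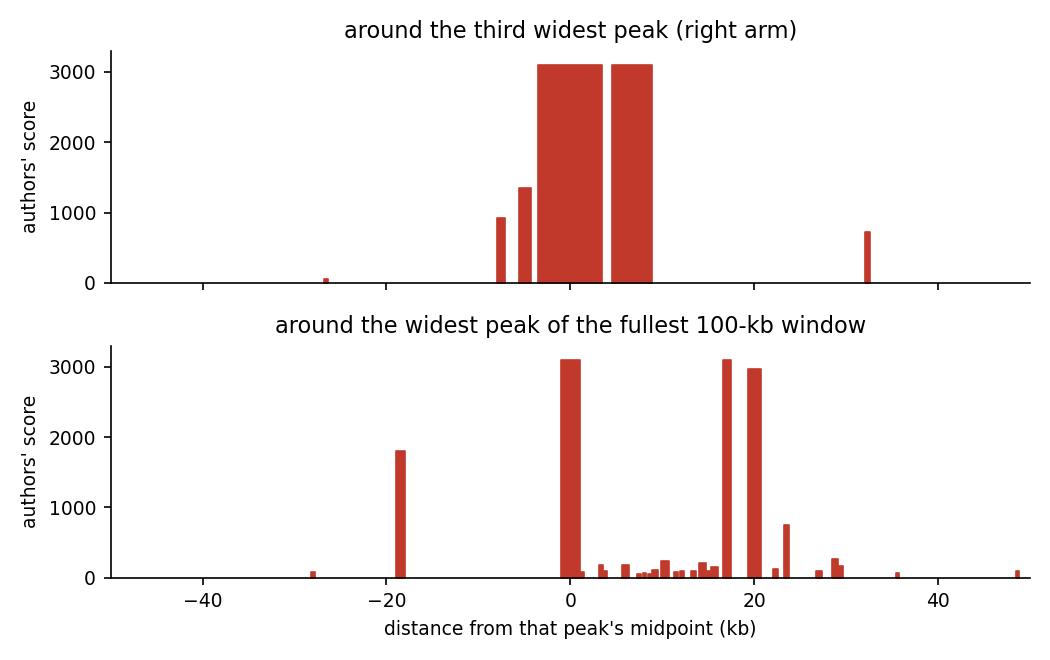
Peaks within 50 kb of 2 points on chromosome V, each drawn at its width (x axis, distance in kb from the midpoint of a named peak) and the authors' score (y axis, reaching a ceiling at 3100). The upper panel is centred on the third widest peak, with its 3 close neighbours, and the lower on the widest peak of the fullest 100-kb window, where low peaks fill the stretch between high ones.

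Wide peaks on V came in groups and as single peaks far from others. The widest, of 9493 bp with a score of 3100, lay in the center (7915650 to 7925142) and had a neighbour 1164 bp away. The second, of 7054 bp (10605564 to 10612617), had a score of 2800.28, short of the ceiling, and its nearest neighbour was 7988 bp away. The fifth, of 6104 bp (9338477 to 9344580), and the sixth, of 5329 bp (10018239 to 10023567), also lay in the center and at the ceiling. Their nearest neighbours were 2085 and 2876 bp away. The ninth, of 4157 bp (724051 to 728207), lay at the ceiling in the left arm and 18.6 kb from any other peak. Of the 12 widest, 4 lay in the left arm, 5 centrally and 3 in the right arm, and together they made up 8.94% of the bases covered on the chromosome.

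The third and the seventh widest peaks stood side by side near 17.12 Mb in the right arm, the region in which the 5S rRNA array is known to lie. The third was 6938 bp wide (17119818 to 17126755) and the seventh 4370 bp wide (17127870 to 17132239), with 1114 bp between them, and both had a score of 3100. To their left were a peak of 1390 bp with a score of 1343.39 (17117684 to 17119073) and one of 924 bp with a score of 927.15 (17115314 to 17116237). The 4 peaks spanned 16.9 kb, and 80.5% of that stretch was covered, with gaps of 744 to 1446 bp. The next peak was 18.3 kb away on the left and 23.1 kb away on the right. This was thus a compact block with clear edges on both sides. In the chain at 6.07 Mb most peaks were weak, and the next peak was 17.0 kb away on the left but 2.96 kb on the right.

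The genes under the block could not be read off, because the gene table used here follows another assembly (WBcel235) than the peaks (WS220). That table lists 15 rRNA genes on chromosome V. Of these, 14 (rrn-4.1 to rrn-4.14, the 5S rRNA genes) follow each other in a single run of 26 genes, together with 11 sls-1 genes, which encode the SL1 leader RNA, and the pseudogene ZK218.8. The remaining rRNA gene, rrn-4.15, lies outside the run. The treatment of reads that align to several copies is unknown here, and the overlap of peaks and array was not tested.

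Width and score did not always go together. Over the 1034 peaks of V, Spearman's rho between them was 0.842, a description of 1 list in which both values come from the same reads. Of the 36 wide peaks, 17 were at the score ceiling, but 3 had a score under the list median. These were chosen after their values had been seen. They were 3827 bp wide with a score of 219.25 (6176778 to 6180604), 2779 bp wide with 84.98 (7988789 to 7991567), and 2299 bp wide with 208.8 (17384043 to 17386341). The first is the tenth widest peak of the chromosome. The twelfth widest, of 3391 bp (14766491 to 14769881), had a score of only 254.06, near the median of V. The eighth, of 4180 bp (9431316 to 9435495), had 1213.65, and the eleventh, of 3559 bp (4333218 to 4336776), had 1673.75. On chromosomes I to IV, 6 of 118 wide peaks had a score under the list median.

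**Figure D4:**
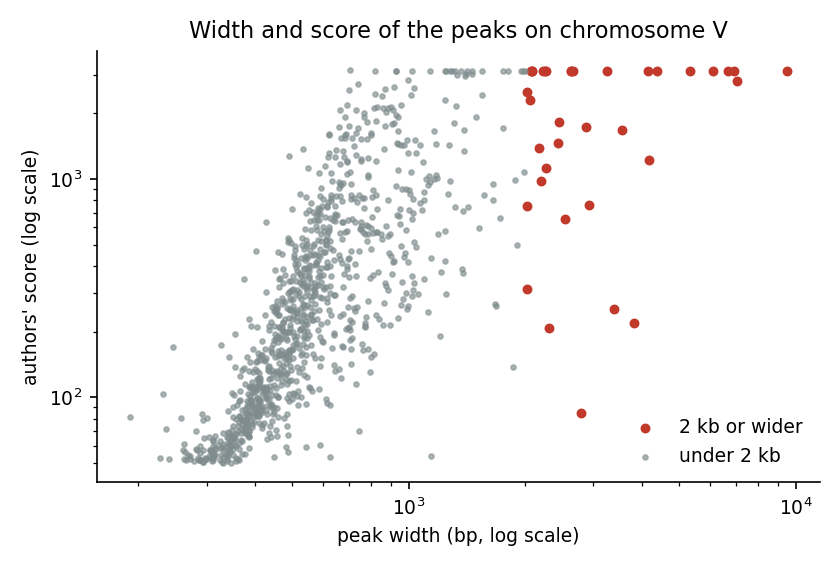
Width (x axis, bp, log scale) against the authors' score (y axis, log scale) for each of the 1034 peaks on chromosome V, with the 36 peaks of 2 kb or wider in red and the others in grey. The row of points near the top lies at the score ceiling of 3100, with the peak of 3135.63 above it. Under the list median score of 229.53 lie 3 red points.

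The peak with the highest listed score was narrow. It scored 3135.63, lay in the center (10896963 to 10897667) and was only 705 bp wide, the narrowest of the 36 peaks of V at 3100 or more. The other 35 tied at exactly 3100, so their order by score is not known. Scores above 3100 also occur elsewhere in the list, up to 3219.64 on chromosome II. Whether the tied peaks are weaker than the peak at 3135.63 therefore cannot be told. Ordered by width, the tied peaks began with 7 of the 12 widest already described, followed by peaks of 3262 bp (17308481 to 17311742) and 2660 bp (3653031 to 3655690). The median width of the 36 was 1984 bp. On V they were 3.48% of the peaks (2.45 to 4.79%), against 2.59% on chromosomes I to IV (2.16 to 3.08%), and these intervals overlap. They lay along the chromosome with a median gap of 287 kb and a longest gap of 2542 kb. No 1-Mb window held more than 4, and 6 of the 21 windows, the incomplete last one included, held none.

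Long stretches without peaks were more frequent on chromosome V than on the other autosomes in these counts. V had 21 gaps of over 100 kb, or 1.00 per Mb, against 5 on I, 9 on II, 3 on III and 8 on IV, the highest rate among these being 0.590 per Mb on II. The longest gap on chromosomes I to IV was 156 kb, and 4 gaps on V were longer than that. Gaps of over 50 kb took up 41.2% of the span of V and 23.2% of the span of chromosomes I to IV. The median gap was 8.93 kb on V and 5.66 kb on chromosomes I to IV. A lower density goes with longer gaps by construction, and its part in these values was not tested.

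The longest gap, of 208 kb, lay near the left end (411370 to 619065), between weak peaks with scores of 127.68 and 90.84. The second, of 205 kb (7237630 to 7442701), lay in the center between strong peaks with scores of 1734.6 and 977.49, and the peak on its right was 2195 bp wide. The third, of 189 kb (8631771 to 8820704), was also in the center, between peaks scoring 156.37 and 91.15. The fourth, of 166 kb (16059275 to 16225617), lay in the right arm, between peaks scoring 150.8 and 302.62. The fifth, of 150 kb (8936537 to 9086736), lay in the center and ended at a peak of 2016 bp with a score of 2509.47. The flanks of the 5 gaps were therefore mixed, with scores under the list median on both sides of 2 of them. Gaps of over 100 kb numbered 8 in the left arm, 6 centrally and 7 in the right arm.

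Of the 209 full windows of 100 kb on V, 10 held no peak (4.78%), against 5 of 613 on chromosomes I to IV (0.816%). A lower density also leaves more windows empty by construction, and its part was not tested. The empty windows of V began at 0.5, 3.1, 5.3, 6.3, 7.3, 7.6, 8.7, 13.2, 16.1 and 16.6 Mb. Of these, 4 lay in the left arm, 4 centrally and 2 in the right arm. These places depend on where the windows begin: with windows shifted by 50 kb, 6 were empty. No empty window lay beyond 16.7 Mb, yet that part held gaps of 149 kb (18728738 to 18877780) and 133 kb (19200950 to 19334029).

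**Figure D5:**
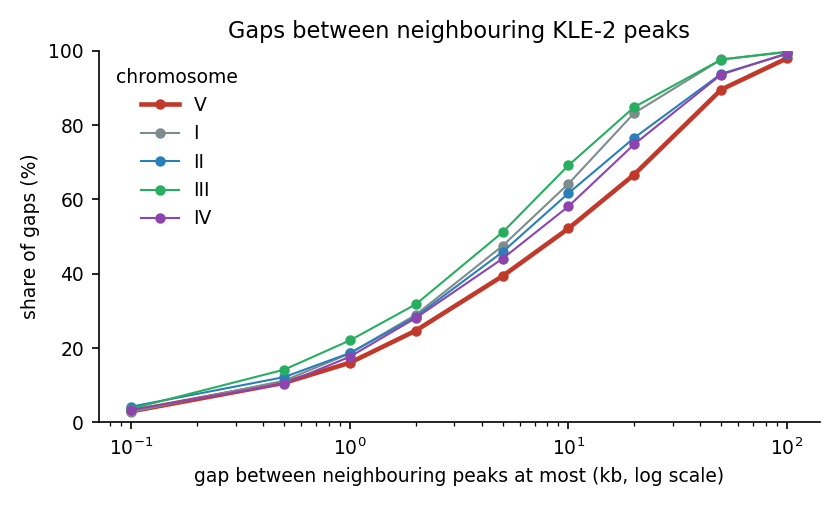
Share of gaps between neighbouring peaks (y axis, %) that are at most a given length (x axis, kb, log scale) on chromosomes V, I, II, III and IV. The curve of V lies lowest from 1 kb upward: 52.2% of its gaps were at most 10 kb, against 63.5% on chromosomes I to IV pooled.

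Close pairs were still common. On V, 421 of the 1034 peaks (40.7%, 37.7 to 43.8%) had another peak within 2 kb, against 45.3% to 50.2% on the other autosomes. Gaps of at most 100 bp numbered 31 of 1033 on V and 167 of 4745 on chromosomes I to IV. Among the wide peaks, the eighth widest was only 6 bp from a neighbour of 2924 bp (9428386 to 9431309), and the pair spanned 7.11 kb. Chains of 4 or more peaks with gaps of at most 2 kb numbered 16 on V and held 88 peaks, or 8.51% of them, against 11.1% on chromosomes I to IV pooled. Chromosome V was not the lowest in this share: it was 7.58% on I, 12.6% on II, 13.3% on III and 11.3% on IV. Of these chains, 4 lay in the left arm, 3 centrally and 9 in the right arm.

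Peaks far from any other were more frequent on V than on the other autosomes pooled. A lower density leaves more of them by construction, and its part was not tested. Peaks over 20 kb from the nearest peak numbered 116 on V (11.2%) and 235 on chromosomes I to IV (4.95%). On V, their median score was 197.45, against 293.04 for peaks with a neighbour within 2 kb. On chromosomes I to IV the corresponding medians were 230.23 and 217.28. The most isolated peak, of 1212 bp with a score of 376.54, was 103 kb from its nearest neighbour (3052955 to 3054166). The second, 82.2 kb from any other, scored 84.13 (18257751 to 18258233), and the third, at 65.8 kb, scored 82.32 (5131357 to 5131763). The most isolated was thus of middling strength and the other two were weak.

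The outermost peaks differed in strength. The first began at base 1 and was 491 bp wide, with a score of 1266.16, and its neighbour was 7473 bp away. The last (20903662 to 20904042) was 381 bp wide, with a score of 96.2, and stood 51.3 kb from the next.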

How the data were processed

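The deposited file is 1 peak list, which gives for each peak its ends and a score. Per the submitters' processing notes, BWA and the ce10 build (WS220) were used for the reads. MACS made the peaks on WormBase WS220, per the file headers and columns. Its version and threshold, and whether the input or pooled reads were used, are unknown here. The deposited score has no named scale. Its lowest value was 50.08. The value 3100, shared by 171 peaks, is called the ceiling here, although some peaks passed it, up to 3219.64. Depth is unknown.

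Peaks were assigned by midpoint, and the last peak's end stood for chromosome length. Densities carry exact Poisson intervals, ratios conditional binomial ones, shares Clopper-Pearson ones and medians order-statistic ones, all at 95%. Interval code was tried on simulated lists of independently placed peaks, for 3 density ratios only. That trial cannot show how the intervals hold when neighbouring peaks are not independent. The members, the rules for named peaks and the comparisons were chosen with earlier results of these data known. Named peaks on V were the 12 widest, the 10 with the highest score (ties by width, then position), those of the fullest 100-kb window, those beside the 5 longest gaps, the 3 most isolated and the outermost. Gene names and their order came from a RefSeq table of WBcel235, and none of its positions was set beside a peak. No sequence was read. Alternatives were other score limits, merging at 500 bp, removal of the widest 1%, covered bases, other arms, shifted windows and other distances. The work used Python 3.11.15 with matplotlib 3.10.9, scipy 1.17.1, pandas 2.3.3 and numpy 2.4.6.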

Additional observations from a re-analysis of the deposited data

How the results depend on the processing

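Of 60 recomputed values for 11 results, 44 stayed within the interval of the reported value, or within 1.5 times it for counts and lengths. The density ratio of V to the other autosomes ran from 0.629 to 0.672 in 6 alternatives. Among peaks with a score above the list median, the median width was 686 bp, 32.8% had a neighbour within 2 kb, 6.72% were at the ceiling, the longest gap was 355 kb, the fullest 100-kb window held 8 peaks and 32 windows were empty. With a score minimum of 100, the median width was 594 bp and the fullest window held 15. After merging at 500 bp, the median width was 558.5 bp, 27.9% had a neighbour within 2 kb and the fullest window held 15. Fewer or joined peaks change these values by construction. With arms of 25%, the arm to center ratio, reported as 1.11 with an interval that holds 1, crossed to the other side of 1 at 0.947, and among stronger peaks it was 0.973; the cause was not tested. Windows shifted by 50 kb left 6 empty. Neighbour distances of 1 and 5 kb gave shares of 27.8% and 61.5%. Leaving out the window at 6.0 to 6.1 Mb was chosen after seeing the data. The next fullest held 14. Because peaks were removed from the left arm alone, the left to right ratio had to fall. It was 0.844 (0.724 to 0.984), an interval that no longer held 1. No paired analysis was possible because values exist here for a single library, and for the same reason no replicate could be left out. Peaks under the authors' threshold are not in the list, and depth is unknown.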

Other observations

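The chain on V with the second highest number of peaks, chosen after its values had been seen, lay in the right arm (17384043 to 17394337). Its 8 peaks covered 86.0% of 10.3 kb, with gaps of 2 to 544 bp. Unlike the block near 17.12 Mb, it held no peak of the highest score class: the scores ran from 53.33 to 476.14, with 4 of 8 above the list median and 4 of 8 under it. Its peaks were nonetheless broad, with a median width of 1003 bp against 536 bp for V as a whole, and the first of them was among the 3 wide peaks of low score.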
